A study of Mus musculus with 6 samples.

Results

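Gnat1 and Slc38a3 lie next to each other on mouse chromosome 9, and the levels of both were higher in cells given a β3-adrenergic agonist. The genes described here are this pair and the 6 protein-coding genes around it, Ifrd2, Sema3b, Gnai2, Sema3f, Rbm5 and Rbm6, which make 8 of the 32739 genes listed per library. Gnat1 and Slc38a3 were chosen because they rose in the comparison of agonist with vehicle, so their values are given as a description with no test. The other 6 were chosen by position, and the question put to them is whether the rise extends to them. A filter on low counts left 7 of the 8 among the 12047 genes tested; Sema3b did not pass it.

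The cells were HL-1, a mouse atrial cardiomyocyte line, grown in Claycomb Medium and exposed to hypoxia for 6 h and reoxygenated for 1 h, a culture model of ischaemia and reperfusion. These times are those of the series design; the sample descriptions carry the tag ReOx7h, whose meaning is not stated. One group of 3 libraries received vehicle and the other group of 3 received 5 µM BRL, an agonist of the β3-adrenergic receptor. The time of BRL addition relative to the hypoxia, and whether the replicates were separate cultures, were not stated in the labels, so the p-values measure only the spread between these samples. HL-1 is an immortalised line of a single origin, and there was no group without hypoxia.

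Gnat1 encodes the alpha subunit of rod transducin, the G protein through which rhodopsin signals in the retina. Gnai2 encodes a closely related inhibitory alpha subunit, which lowers cyclic AMP production and is widely expressed, the heart included. Slc38a3 encodes SNAT3, a sodium-coupled carrier of glutamine, histidine and asparagine known best from liver, kidney and brain. Sema3b and Sema3f encode secreted class 3 semaphorins, guidance cues that bind neuropilin and plexin receptors. Rbm5 and Rbm6 encode related RNA-binding proteins that regulate splicing, and Ifrd2 encodes an interferon-related developmental regulator that binds ribosomes. The human counterparts of these genes lie together in a region often deleted in lung cancer.

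In the GENCODE M21 annotation the protein-coding order was Ifrd2, Sema3b, Gnai2, Slc38a3, Gnat1, Sema3f, Rbm5 and Rbm6, with no other protein-coding gene between them. Ifrd2 was annotated on the plus strand and the other 7 on the minus strand. No exon of these genes overlapped an exon of another annotated gene. In all 6 libraries the expected counts of all 8 genes were whole numbers within 0.005, which is the form counts take when no read is divided between loci.

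Because Gnat1 and Gnai2 code for sister proteins and lie 1 gene apart, their sequences were compared to judge whether reads of one could be counted for the other. Over 1053 aligned coding bases 727 were identical, which is 69.0%. No stretch of 30 bases in the annotated Gnat1 transcript, out of 2299, occurred in a transcript of another gene, and none of 3356 did for Slc38a3. For Gnai2, 17 of 2186 such stretches, or 0.778%, also occurred in Gnai1, Gnao1 or Gnaz. Rbm6 shared the most among the 8, with 1273 of 3970 stretches, or 32.1%, shared with the pseudogenes Rbm6-ps1 and Rbm6-ps2, which were not analysed here. The Rbm6 counts are therefore less certain than those of the other genes. Whole counts alone do not show that no pseudogene read was counted for Rbm6. Of the transcripts that RSEM listed, 1 of 2 was compared for Gnai2, Sema3f and Rbm6, and 6 of 7 for Sema3b. The shares for these genes cover only the transcripts compared.

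The libraries held 4440168 to 5060049 expected counts with vehicle and 6812810 to 8332472 with BRL. BRL replicate 1 stood apart from the other 5 libraries: genes encoded by mitochondrial DNA took 5.03% of its counts, against 16.5% to 21.9% elsewhere. The variance between BRL replicates 2 and 3 was 4.20 times that of counting error over all genes, whereas replicate 1 differed from them at 89.1 and 76.8 times. Results are given with and without it. Of 10 cardiomyocyte markers 9 had at least 10 counts in every library. Their per-length level was RSEM's fraction of transcripts scaled to TPM. The 10 markers summed to 8591 to 8659 TPM with vehicle and 7115 to 7562 TPM with BRL. The sum hid both directions. Mean TPM was lower with BRL for Myh6 (882 against 354), Actc1, Pln, Myl7 and Sln. It was higher with BRL for Tnni3 (429 against 509), Tnnt2, Nppa, Ryr2 and Gja5. TPM also carried a shift between libraries, given below. A list of 8 smooth muscle markers, of which 7 passed 10 counts in every library, summed to 3146 to 3289 TPM with vehicle and 1710 to 2527 TPM with BRL, lowest in BRL replicate 1. The part of either difference in the results below was not tested. Bulk RNA cannot tell fewer cells expressing a gene from less RNA per cell.

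Slc38a3 (ENSMUSG00000010064) had the largest gain in reads of the 8 genes. Its level, in CPM, the count relative to library size after TMM scaling, was 87.2, 83.7 and 88.0 under vehicle and 297, 610 and 521 under BRL. The vehicle libraries lay close together, every BRL library lay above them, and BRL replicate 1 was the lowest of the 3. The means were 86.3 ± 2.28 CPM (SD, n = 3) with vehicle and 476 ± 161 CPM (SD, n = 3) with BRL, a ratio of 5.52. Against the vehicle mean, the BRL libraries stood 3.44-fold, 7.07-fold and 6.03-fold higher. The fitted log2 fold change was 2.46 ± 0.24 (SE) over all 6 libraries and 2.72 ± 0.08 without BRL replicate 1. Ranked by mean fraction of transcripts, Slc38a3 stood at place 2624 of 32739 genes with vehicle and at place 399 with BRL.

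Gnat1 (ENSMUSG00000034837) had the largest ratio of the 8 genes, from a far lower start. Replicates 1 to 3 held 7, 5 and 7 counts under vehicle against 85, 123 and 174 under BRL. Scaled, these were 1.57, 1.05 and 1.42 CPM with vehicle and 11.3, 17.3 and 21.3 CPM with BRL, so the groups did not overlap. The smallest level that 3 counts allow was 0.367 to 0.673 CPM per library, and all vehicle libraries lay above it. The means were 1.35 ± 0.268 CPM with vehicle and 16.6 ± 5.04 CPM with BRL (SD, n = 3 each), a ratio of 12.3. Single BRL libraries stood 8.36-fold, 12.9-fold and 15.8-fold above the vehicle mean, again lowest in replicate 1. The fitted log2 fold change was 3.61 ± 0.34 (SE), and 3.83 ± 0.25 without BRL replicate 1.

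The changes of the tested neighbours were far smaller: their 95% intervals ended at 1.09 or below on the log2 scale. The intervals were 1.91 to 3.01 for Slc38a3 and 2.83 to 4.39 for Gnat1. The pair was chosen for its rise in this comparison, so its intervals do not carry their stated coverage. The contrast between the pair and its neighbours is therefore a description. Of the 6 neighbours, 5 were tested and none passed an adjusted p of 0.05 in either direction in edgeR's quasi-likelihood test (p adjusted by Benjamini and Hochberg over all genes), where 1.01% of all 12047 genes were called higher and 1.79% lower. At an unadjusted p under 0.05, 3 of the 5 were higher (Gnai2, Sema3f and Rbm6), beside 11.6% of all genes. The same 3 had every BRL library above every vehicle library, as did 16.0% of all genes tested. DESeq2, which called 2.44% of 11816 genes higher and 2.79% lower, called 1 of them, Rbm6, limma-voom none and limma on the deposited log2 values none. The median log2 fold change of the 5 was 0.39, beside 0.01 for all genes.

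**Figure D1:**
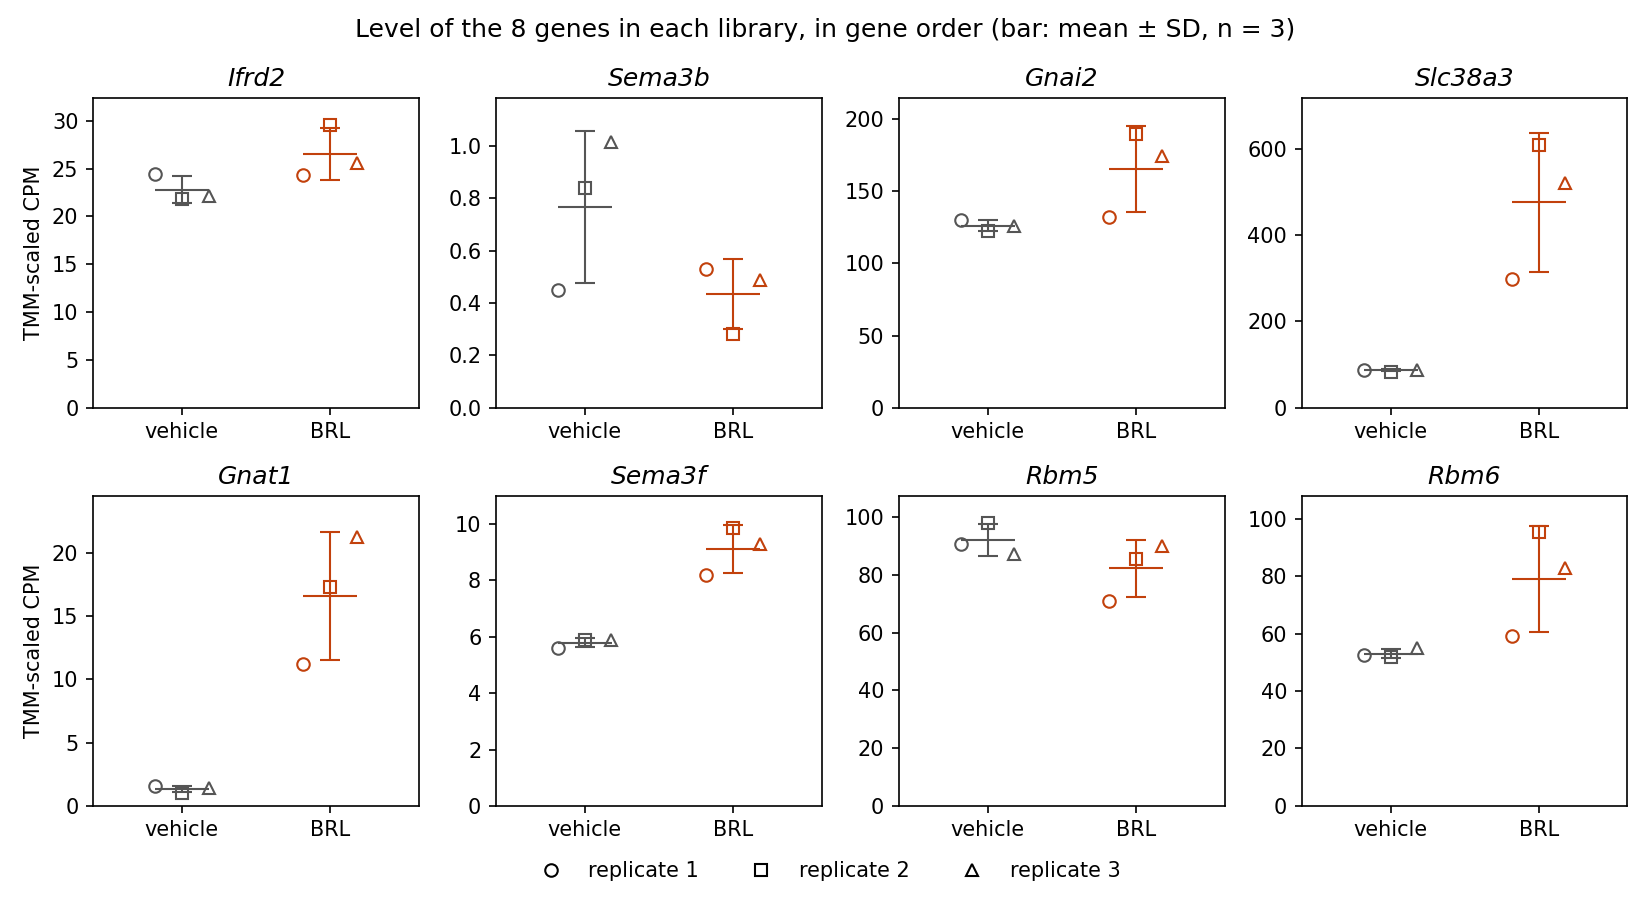
Level of each of the 8 genes in TMM-scaled CPM (vertical axis, from 0, a separate scale per gene) in the vehicle and BRL groups; symbols are single libraries, and the bar and whiskers are the mean ± SD of 3 libraries. Slc38a3 and Gnat1 are far above vehicle in every BRL library, Gnai2, Sema3f and Rbm6 are separated from vehicle by much less, and Ifrd2, Sema3b and Rbm5 overlap.

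Gnai2 (ENSMUSG00000032562), the neighbour of Slc38a3 on the other side from Gnat1, measured 130, 123 and 126 CPM with vehicle and 132, 189 and 174 CPM with BRL. BRL replicate 1 lay just above the highest vehicle library, while the other BRL libraries were clear of it. The means were 126 ± 3.89 and 165 ± 29.6 CPM (SD, n = 3 each). The log2 fold change was 0.39 ± 0.14 (SE; 95% interval 0.08 to 0.70; adjusted p = 0.149, edgeR). With BRL replicate 1 left out it was 0.53 ± 0.07, with an adjusted p of 0.000197 (edgeR).

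Sema3f (ENSMUSG00000034684), the neighbour of Gnat1 on the far side, was a low-level gene with 25, 28 and 29 counts under vehicle and 62, 70 and 76 under BRL. Its levels were 5.61, 5.87 and 5.88 CPM with vehicle and 8.21, 9.85 and 9.29 CPM with BRL. All 3 BRL libraries were above all 3 vehicle libraries, and replicate 1 was the nearest to vehicle. The log2 fold change was 0.65 ± 0.19 (SE; 95% interval 0.22 to 1.09; adjusted p = 0.102, edgeR), and 0.73 ± 0.20 with an adjusted p of 0.0217 (edgeR) without BRL replicate 1.

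Sema3b (ENSMUSG00000057969), the other semaphorin, was barely detected, with 2, 4 and 5 counts with vehicle and 4, 2 and 4 with BRL. The groups overlapped at 0.448 to 1.01 CPM with vehicle and 0.282 to 0.529 CPM with BRL. Fits that kept Sema3b gave log2 fold changes of -0.77 ± 0.76 (SE) in edgeR without the filter and -0.80 ± 1.05 in DESeq2. Limma on the deposited log2 values gave -0.80 ± 0.56. Whether a difference of the size seen for Sema3f could be detected at this depth was not tested.

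Rbm5 (ENSMUSG00000032580) and Rbm6 (ENSMUSG00000032582) are adjacent and on the same strand, yet their values differed. Rbm5 measured 90.8, 98.0 and 87.2 CPM with vehicle and 71.1, 85.6 and 90.05 CPM with BRL, and the groups overlapped. Its log2 fold change was -0.16 ± 0.12 (SE; 95% interval -0.43 to 0.10; adjusted p = 0.448, edgeR). Rbm6 measured 52.5, 51.8 and 54.9 CPM with vehicle and 59.2, 95.4 and 82.8 CPM with BRL. All BRL libraries lay above vehicle, replicate 1 by the smallest margin. Its log2 fold change was 0.58 ± 0.17 (SE; 95% interval 0.19 to 0.96; adjusted p = 0.101, edgeR). With replicate 1 left out Rbm6 reached 0.75 ± 0.09 with an adjusted p of 7.89e-05 (edgeR), and Rbm5 stood at -0.06 ± 0.08. The difference between the changes of Rbm5 and Rbm6 was not tested.

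Rbm5 and Rbm6 are also 2 of the 3 genes here with a promoter in the RefSeq table at hand (build GRCm38.p6), the other being Ifrd2. Their 300 bases around the start are printed to set side by side a gene that overlapped between groups and a neighbour that did not. Rbm5 is at chr9:107770953-107771252 and Rbm6 at chr9:107872770-107873069, both on the minus strand, and capitals mark the only match to a searched motif.
Rbm5: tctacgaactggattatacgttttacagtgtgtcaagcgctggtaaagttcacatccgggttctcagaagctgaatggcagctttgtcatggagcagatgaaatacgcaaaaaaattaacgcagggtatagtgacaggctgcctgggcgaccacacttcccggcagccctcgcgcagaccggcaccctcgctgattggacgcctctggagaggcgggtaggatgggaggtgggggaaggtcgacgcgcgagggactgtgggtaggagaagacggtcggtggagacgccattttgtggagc
Rbm6: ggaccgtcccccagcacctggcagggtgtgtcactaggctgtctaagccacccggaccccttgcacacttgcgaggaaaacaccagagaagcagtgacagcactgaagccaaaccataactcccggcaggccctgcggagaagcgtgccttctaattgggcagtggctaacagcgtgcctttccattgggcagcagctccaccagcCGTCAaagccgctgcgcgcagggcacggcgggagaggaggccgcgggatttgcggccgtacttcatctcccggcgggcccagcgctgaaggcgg
On both strands, 4 motifs were searched: the full cyclic AMP response element TGACGTCA, its shorter form TGACG, which is also part of the full element, the NR4A element AAAGGTCA and the AP-1 site TGANTCA. The match in Rbm6 is TGACG read on the opposite strand, at position 207 of the 300 bases. The shorter form occurred in 20.9% of 32544 mouse promoters of this length, the full element in 1.80%, the NR4A element in 1.52% and the AP-1 site in 7.79%. Neither the Rbm5 nor the Ifrd2 promoter held any of the 4. GC content was 56.3% for Rbm5, 64.3% for Rbm6 and 61.3% for Ifrd2, beside a median of 52.7% over 32851 promoters.

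Ifrd2 (ENSMUSG00000010048), the outermost gene and the only one on the plus strand, measured 24.4, 21.8 and 22.1 CPM with vehicle and 24.4, 29.6 and 25.5 CPM with BRL. BRL replicate 1 fell inside the vehicle range. The log2 fold change was 0.22 ± 0.13 (SE; 95% interval -0.07 to 0.50; adjusted p = 0.349, edgeR) and stayed short of the threshold without BRL replicate 1, at 0.28 ± 0.12 with an adjusted p of 0.113 (edgeR).

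Leaving out BRL replicate 1 moved the count of called neighbours from 0 to 3 of 5, and it raised the calls over all genes as well. In that fit 21.2% of 12064 genes were called, 10.3% higher and 10.9% lower, against 2.81% with all libraries. At an unadjusted p under 0.05, 4 of the 5 neighbours were higher (the 3 and Ifrd2), beside 17.8% of all genes. For Gnai2, Sema3f, Rbm6, Slc38a3 and Gnat1 alike, replicate 1 was the lowest of the BRL libraries in CPM. In TPM it was still the lowest for Rbm6, Slc38a3 and Gnat1. For Gnai2 it was the highest in TPM, at 125.7 against 122.3 and 120.4. The same held for Sema3f, at 4.78 against 3.99 and 4.06 TPM.

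**Figure D2:**
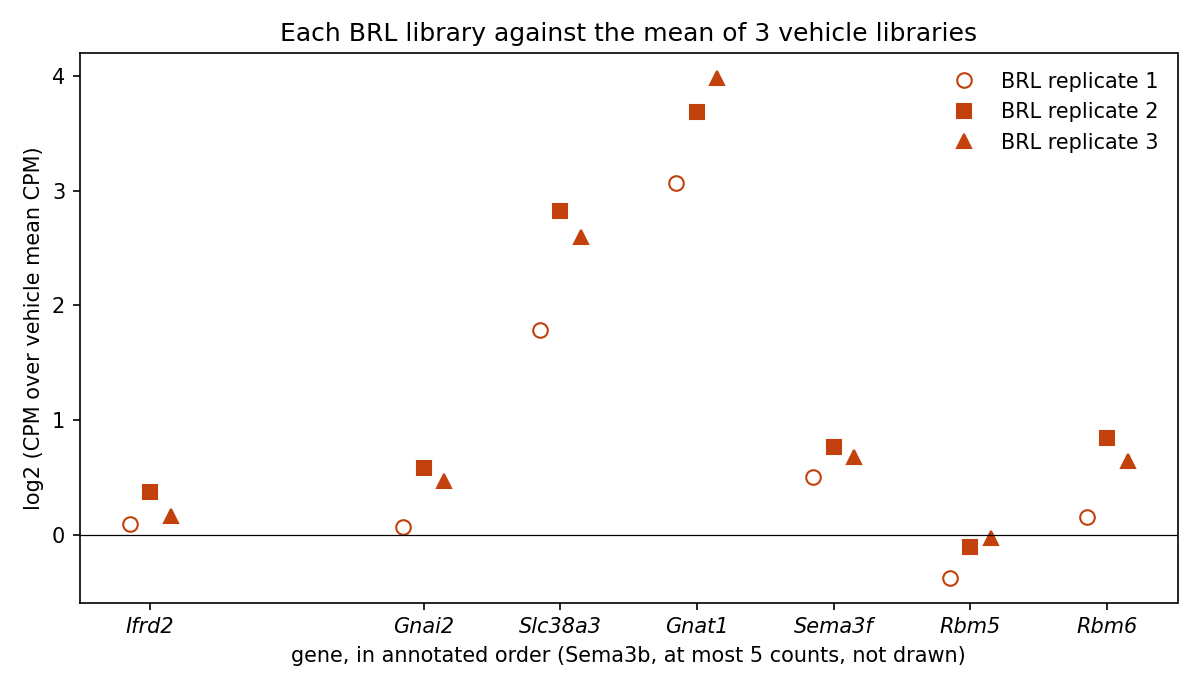
Log2 ratio of each BRL library's CPM to the mean of 3 vehicle libraries (vertical axis) for 7 of the 8 genes in annotated order, with 1 symbol per library; Sema3b, with at most 5 counts, is not drawn. BRL replicate 1 (open circle) is the lowest of the 3 for every gene drawn, at 1.78 for Slc38a3, 3.06 for Gnat1 and 0.07 for Gnai2.

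The separation between the pair and its surroundings was also seen inside each library. The sum over the 6 neighbours was 304, 301 and 297 CPM with vehicle and 296, 410 and 383 CPM with BRL. In BRL replicate 1 that sum was level with vehicle while Slc38a3 was 3.44-fold higher. The level sum hid changes in both directions. Relative to the vehicle mean, Sema3f stood at 1.42-fold, Rbm6 at 1.11-fold, Ifrd2 at 1.07-fold and Gnai2 at 1.05-fold in that library. Rbm5 stood at 0.773-fold and Sema3b, with few counts, at 0.690-fold. Slc38a3 made up 22.2%, 21.7% and 22.8% of the CPM of the 8 genes with vehicle and 49.2%, 58.8% and 56.3% with BRL. The ratio of Slc38a3 to Gnai2 was 0.670, 0.683 and 0.699 with vehicle and 2.25, 3.22 and 2.98 with BRL, a measure that does not depend on how libraries are scaled. Gnat1 made up 0.272% to 0.3995% of the CPM of the 8 genes with vehicle and 1.67% to 2.30% with BRL.

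**Figure D3:**
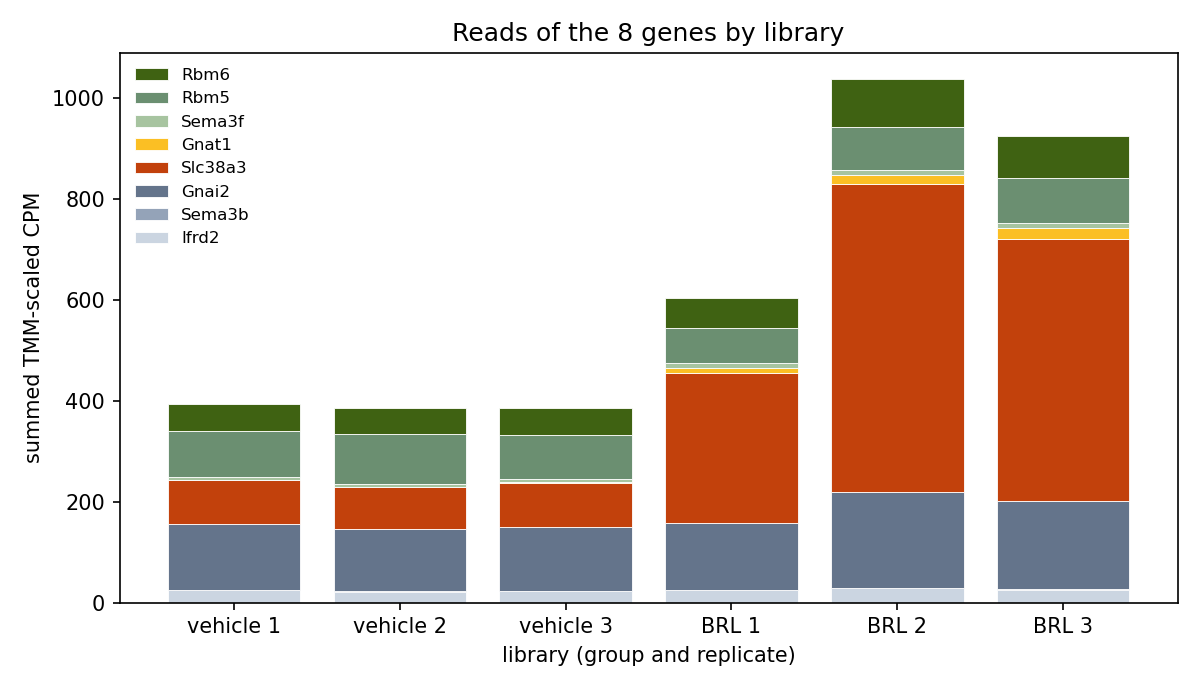
Stacked TMM-scaled CPM of the 8 genes (vertical axis, from 0) in each of the 6 libraries, with 1 colour per gene. The Slc38a3 share grows from 21.7% to 22.8% with vehicle to 49.2% to 58.8% with BRL, while Gnat1 stays a thin band.

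Levels of different genes were compared on the RSEM fraction of transcripts, which allows for transcript length, expressed as TPM. With vehicle, Gnai2 was highest at 90.7 ± 6.02 TPM (SD, n = 3), followed by Slc38a3 at 51.0 ± 3.05 and Rbm5 at 46.1 ± 2.66 TPM. The ranges of Slc38a3 and Rbm5 overlapped, so their order is not settled by 3 libraries. Below them came Rbm6 at 25.8 ± 3.29, Ifrd2 at 18.1 ± 1.81, Sema3f at 2.64 ± 0.03, Gnat1 at 0.957 ± 0.219 and Sema3b at 0.378 ± 0.138 TPM, with no overlap between neighbours in that order. With BRL, Slc38a3 took the first place at 282 ± 46.0 TPM, ahead of Gnai2 at 123 ± 2.67 TPM. Rbm6 at 46.3 ± 6.82 and Rbm5 at 42.9 ± 4.12 TPM overlapped, Ifrd2 followed at 21.9 ± 3.06 TPM, and Gnat1 at 11.98 ± 2.15 TPM now stood above Sema3f at 4.28 ± 0.437 TPM. Even then Slc38a3 transcripts outnumbered Gnat1 transcripts in each library, 46.5 to 66.0 times with vehicle and 20.4 to 29.1 times with BRL. Between libraries TPM carried a shift, since the median gene of BRL replicate 1 lay 0.36 above vehicle on the log2 scale, so changes are read from CPM.

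The ratio of the group means differed between the fraction and the count by more for Rbm6 and Sema3b than for the other 6 genes. For Sema3b, with at most 5 counts, it was 0.674 in TPM and 0.565 in CPM. The Rbm6 BRL mean was 1.80 times the vehicle mean in TPM and 1.49 times in CPM, and the counts per unit of fraction, set to the median of single-transcript genes, were 1.172, 1.288 and 1.068 with vehicle and 1.12, 0.916 and 0.970 with BRL. These values overlapped between groups. RSEM listed 2 transcripts for Rbm6, and their separate levels were not analysed here.

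A wider stretch of the chromosome was taken as the 20 protein-coding genes on each side of the pair. Of these 40, 39 were in the files and 27 were tested, the 5 tested neighbours included. None was past the edgeR threshold in either direction, while 6 were higher and 1 was lower at an unadjusted p under 0.05, beside 11.6% and 10.8% of all genes. DESeq2 called 1 gene of the 27, Rbm6, and limma-voom none. Of the 27, 19 had a log2 fold change above 0, or 70.4%, beside 50.7% of all genes tested, and their median was 0.19 beside 0.01. The median was 0.39 over the 13 tested genes among the nearest 10 on each side and 0.13 over the 72 among the nearest 50, with no gene past the edgeR threshold at either width. At an unadjusted p under 0.05, 5 of the 13 were higher and 0 lower, and 15 of the 72 were higher and 4 lower. Without BRL replicate 1, 4 of the 13 rose, and at the wider width 14 of 73 rose and 2 fell, beside 10.3% called higher and 10.9% lower over all genes.

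Just beyond Rbm6, Mon1a, which acts in vesicle trafficking, measured 3.87 ± 0.738 CPM with vehicle and 5.93 ± 0.884 CPM with BRL (log2 fold change 0.61 ± 0.26, adjusted p = 0.214, edgeR). The next tested gene on that side was Traip, a ubiquitin ligase of the replication stress response, with a log2 fold change of 0.41 ± 0.16 (adjusted p = 0.181, edgeR). Beyond Ifrd2 the nearest tested genes were Naa80, which acetylates actin, at 0.41 ± 0.38 (adjusted p = 0.566, edgeR), and the hyaluronidase gene Hyal1 at 0.32 ± 0.21 (adjusted p = 0.415, edgeR). The counts of Naa80 and Hyal1 were not whole, so RSEM divided some of their reads between loci. Without BRL replicate 1, 5 of the 27 genes rose and none fell: Gnai2, Sema3f, Rbm6, Naa80 at 0.78 ± 0.16 (adjusted p = 0.00473, edgeR) and Cyb561d2, a cytochrome b561 family gene, at 0.88 ± 0.27 (adjusted p = 0.0320, edgeR). That is beside 10.3% called higher over all genes in the same fit.

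**Figure D4:**
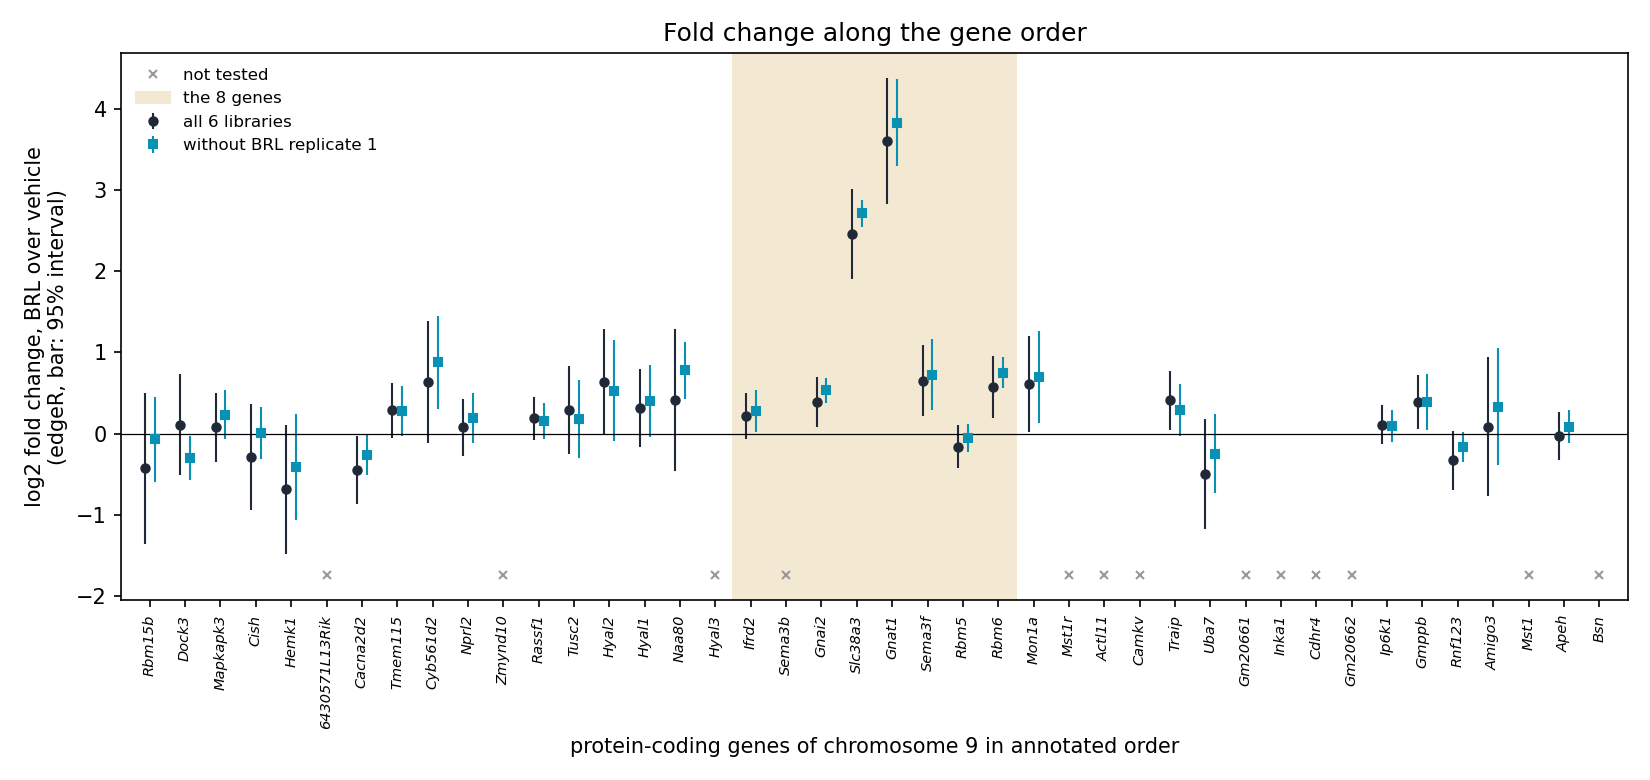
Log2 fold change of BRL over vehicle with its 95% interval (vertical axis) for the 8 genes and the protein-coding genes around them in annotated order (horizontal axis, not to scale in bases), from all 6 libraries (circles) and without BRL replicate 1 (squares); crosses are genes not tested. Slc38a3 at 2.46 and Gnat1 at 3.61 stand above all other genes drawn, whose values with all libraries are at most 0.65.

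Over the genome, with all 6 libraries, few adjacent pairs of genes both rose. Whether they were more or fewer than the share of genes that rose would give was not tested. Among 7415 adjacent pairs of tested protein-coding genes, 158 held at least 1 gene that rose and 4 held 2, which is 0.0539% of pairs: Mypn-Herc4, Herc4-Sirt1, Slc3a2-Wdr74 and Slc38a3-Gnat1. In only 1 of the 4, Slc38a3-Gnat1, were both genes at least 4-fold higher. Tested neighbours were counted once for each gene that rose near them, so a gene near several was counted more than once. Slc38a3 and Gnat1 count as each other's neighbours here. Of neighbours within 3 places so counted, 12 of 449, or 2.67%, had also risen, and within 10 places 22 of 1373, or 1.602%. Over all tested protein-coding genes, each counted once, the share was 1.01%, which is not the same kind of count. Leaving out BRL replicate 1, the count of pairs that both rose was 134 of 7417, or 1.81%. In that fit, with neighbours counted in the same way, 740 of 4669 within 3 places, or 15.8%, had also risen. Within 10 places it was 2154 of 14730, or 14.6%, beside 10.6% of all tested protein-coding genes, each counted once. The pair was chosen for its rise, so its place among the 4 is a description.

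Across the 6 libraries, Slc38a3 and Gnat1 had a Pearson r of 0.99 on log2(CPM + 1), and Slc38a3 and Sema3f had 0.997. Gnai2 and Rbm6 had 0.99, and Rbm5 stood between -0.47 and -0.05 with the other tested genes. With 2 groups of 3, genes that separate the groups in the same direction tend to have a high r with each other. Those that separate them in opposite directions tend to have a strongly negative r. The values therefore largely restate the group difference together with the position of BRL replicate 1. The genes most like Slc38a3 by this measure were Gfpt2, Rpl36a, Arrdc3, Cmip and Atp5j2, at r of 0.997 to 0.999, and those most like Gnat1 included N4bp2l1, Rab5c, Ap1s3 and Cmtm7, at 0.996 to 0.999. Gfpt2, an enzyme of the hexosamine pathway that uses glutamine, measured 13.1 ± 0.448 CPM with vehicle and 52.9 ± 15.5 CPM with BRL.

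Of 8 alpha subunits of the Gi and transducin family, 5 were tested, and among the 4 other than Gnat1 none passed the edgeR threshold, with 1 higher and 1 lower at an unadjusted p under 0.05, beside 11.6% and 10.8% of all genes, and DESeq2 and limma-voom called none of the 4. Gnai3 measured 83.4 ± 5.43 CPM with vehicle and 96.6 ± 23.0 CPM with BRL (adjusted p = 0.477, edgeR), and Gnao1 measured 35.0 ± 1.43 and 28.9 ± 2.64 CPM (adjusted p = 0.204, edgeR). Cone transducin Gnat2 measured 2.81 ± 0.551 and 2.36 ± 0.446 CPM (adjusted p = 0.684, edgeR). Gnai1, Gnaz and Gnat3 had no counts in any library, which allows up to 0.673 CPM in the shallowest.

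Most other genes of rod phototransduction, the pathway in which Gnat1 works in the retina, were at or near the detection limit. Of 20 genes, 6 were tested, and none passed the threshold or an unadjusted p of 0.05 in edgeR, nor did DESeq2 or limma-voom call any. In 13 of the 20 there were fewer than 10 counts in every library, and Gngt1, Cnga1, Rcvrn, Pdc and Nrl had none. Gnb1, the beta subunit that transducin shares with many other G proteins, was abundant at 192 ± 4.33 CPM with vehicle and 222 ± 25.5 CPM with BRL. A list of 8 retinal rod markers summed to 1.44 to 2.53 TPM with vehicle and 1.43 to 2.26 TPM with BRL, and 7 of the 8 had fewer than 10 counts in every library.

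Among 16 genes of the SLC38 carrier family and glutamine metabolism, 11 were tested, and among the 10 other than Slc38a3 none passed the edgeR threshold. Of these 10, 1 was higher and 1 lower at an unadjusted p under 0.05, beside 11.6% and 10.8% of all genes, and DESeq2 and limma-voom called none. Slc38a2, the SNAT2 carrier and a more abundant gene than Slc38a3 in vehicle, measured 432 ± 21.5 CPM with vehicle and 335 ± 74.1 CPM with BRL (log2 fold change -0.37 ± 0.16, adjusted p = 0.218, edgeR). Without BRL replicate 1, Slc38a10 at 0.30 and Slc1a5, the ASCT2 glutamine carrier, at 0.30 rose (adjusted p = 0.0059 and 0.0141, edgeR).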

How the data were processed

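Per the labels' protocols, total RNA of the 6 libraries was extracted with RNeasy Mini and prepared with TruSeq RNA v2. The submitters' processing notes name RSEM 1.17, Bowtie, cutadapt, edgeR and the build NCBIM37, with settings and use of strand not stated. The authors deposited RSEM expected counts and a fraction of transcripts per gene and library, the latter summing to 1 and printed here as TPM. The authors' deposited series table holds log2 values for 13863 genes and served as an alternative. Of the genes with a nonzero expected count, 27.2% to 30.1% per library had one that was not whole (tolerance 0.005).

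Expected counts were rounded and tested with edgeR 4.0.16 in R 4.3.3: a low-count filter with a minimum of 10, TMM factors, a quasi-likelihood F-test of group with no other term, and Benjamini-Hochberg adjustment over the 12047 genes kept at a threshold of 0.05. Standard errors were derived from the log2 fold change and its F statistic. Alternatives used limma 3.58.1 and DESeq2 1.42.0. At the depth given above, 3 counts equal 0.367 to 0.673 CPM, a limit that covers counting error only. Symbols matched 88.4% of the genes. GENCODE M21 belongs to another build and gave only symbols, gene order, exon overlap and transcript sequence. The promoter sequences are RefSeq's.

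The members and gene lists were chosen with earlier results of these data known. Named genes are the 8 members, the genes past the threshold within 20 places, the 2 nearest tested genes beyond the outermost members, list members past the threshold (at most 4 by p) and the 5 genes most like Gnat1 or Slc38a3. Other list members, such as Gnai3, Gnao1, Gnat2, Gnb1 and Slc38a2, were named after their values were seen. Some items that these rules select are not reported here.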

Additional observations from a re-analysis of the deposited data

How the results depend on the processing

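Under 16 alternative settings no direction of a tested member reversed. The log2 fold change ranged from 2.25 to 2.72 for Slc38a3, 3.39 to 3.83 for Gnat1, 0.28 to 0.53 for Gnai2, 0.60 to 0.73 for Sema3f, 0.42 to 0.75 for Rbm6, 0.13 to 0.28 for Ifrd2 and -0.23 to -0.06 for Rbm5. With all libraries kept, of the 5 tested neighbours only Rbm6 passed the threshold in any of these settings, in edgeR without the low-count filter and in DESeq2 (adjusted p = 0.0382 and 0.0384). Those settings gave 1 called neighbour and 1 called gene in the 40-gene stretch, against 0 in each. Leaving out 1 library in turn gave 0 to 3 called neighbours and 0 to 5 called genes in the stretch, with the highest values without BRL replicate 1 and 0 for each other library. Over all genes the 338 calls became 222 with library totals only, 612 without the filter and 618 with DESeq2. They became 32 to 2555 when 1 library was left out: 56, 48 and 32 without vehicle replicates 1, 2 and 3, and 2555, 127 and 148 without BRL replicates 1, 2 and 3. The cause was not tested. Whether the replicate numbers pair the samples was not settled. Same-numbered libraries had correlations of deviations of 0.101, -0.001 and -0.005, and not every library correlated best with its own number. Such values from 3 libraries per group cannot decide it. A fit with the replicate number as a block gave 213 calls over all genes and 0 called neighbours. Depth limits Sema3b, with at most 5 counts, and the vehicle level of Gnat1, with at most 7.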

Other observations

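Of 14 class 3 semaphorins and their receptors, 12 were tested and none passed the edgeR threshold, while 1 gene was higher and 5 were lower at an unadjusted p under 0.05, beside 11.6% and 10.8% of all genes. DESeq2 called 2 of them lower, beside 2.79% of all genes with an adjusted p, and limma-voom none. Their median log2 fold change was -0.21, beside 0.01 for all genes, although Sema3f itself stood at 0.65. When BRL replicate 1 was left out, Sema3f and Plxna1 rose and Sema3a, Nrp1, Nrp2, Plxna3 and Plxna4 fell, beside 10.3% of all genes called higher and 10.9% lower. In that fit Sema3a, a repulsive axon guidance cue, changed by -0.99 ± 0.21 and Nrp1, a neuropilin co-receptor, by -0.35 ± 0.08 (adjusted p = 0.00487 and 0.00591, edgeR).

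Of 9 genes of the RBM5 family and its splicing partners all were tested and none passed the edgeR threshold, with 4 higher at an unadjusted p under 0.05, beside 11.6% of all genes. DESeq2 called 1 higher, beside 2.44% of all genes, and limma-voom none. Without BRL replicate 1, Rbm6 and both subunits of the U2AF splice-site factor, U2af1 at 0.32 ± 0.09 and U2af2 at 0.31 ± 0.07, rose (adjusted p = 0.0181 and 0.00694 for the U2AF genes, edgeR), beside 10.3% of all genes called higher. Ifrd1, the paralogue of Ifrd2, measured 345 ± 15.7 CPM with vehicle and 495 ± 95.2 CPM with BRL (SD, n = 3 each; log2 fold change 0.52 ± 0.14, adjusted p = 0.0864, edgeR). Neither IFRD gene passed the edgeR threshold. At an unadjusted p under 0.05, 1 of the 2 was higher, beside 11.6% of all genes, DESeq2 called 1 and limma-voom none. Without BRL replicate 1 Ifrd1 passed it, at 0.36 ± 0.07 (adjusted p = 0.00225, edgeR).

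Other marker lists were at low levels. Fibroblast markers summed to 1.16 to 1.71 TPM with vehicle and 2.00 to 2.53 TPM with BRL, with Dcn and Lum at 0. Endothelial markers summed to 2.32 to 3.59 and 1.99 to 2.57 TPM, with Emcn at 0. Leukocyte markers summed to 4.29 to 5.98 and 3.75 to 6.86 TPM, with Ptprc and Adgre1 at 0.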
